A study of Mus musculus with 12 samples.

Results

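The 27 genes described here encode the enzymes that build cholesterol from acetyl-CoA and the proteins that sense and set sterol levels. They were taken as a named list, matched by symbol among the 24062 genes of the deposited count table, and all 27 were found. The list does not hold every gene of the pathway. RNA-seq libraries were made from mouse kidneys of 4 groups, each of 3 mice. UNx CrePlus mice carried Cre in a Pkd1 model, received tamoxifen and had 1 kidney removed by unilateral nephrectomy (UNx). UNx CreMinus mice had the same operation and the same tamoxifen but no Cre. Sham CrePlus mice carried Cre and sham CreMinus mice did not, and both kept their 2 kidneys after a sham operation. All were adults of 6 to 8 weeks and received tamoxifen, and kidneys were collected 4 weeks later. Pkd1, which Cre is there to remove, encodes polycystin-1 and is mutated in polycystic kidney disease. The labels name neither the Pkd1 allele nor the promoter that drives Cre, so the cells in which recombination took place are not given.

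Cholesterol synthesis starts from HMG-CoA, which is turned into mevalonate, then into isoprenoid units, squalene and lanosterol, and lanosterol is trimmed in many steps to cholesterol. When sterols in the endoplasmic reticulum run low, SCAP carries the SREBP transcription factors to the Golgi, where they are cut and released to the nucleus to raise the genes of the pathway. INSIG proteins hold SCAP back when sterols are plentiful, and oxysterols activate LXR factors, which raise cholesterol efflux through ABCA1. In the kidney, tubule cells both take up and make cholesterol, and the mevalonate branch also supplies lipid anchors for proteins.

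The libraries held 18914300 to 22480895 counts in 8 cases and 41699032 to 42785476 counts in 4 others, namely all 3 of UNx CrePlus and replicate 1 of UNx CreMinus, so depth differed between the UNx groups. From Xist and Y-linked counts, 5 libraries were male (UNx CrePlus replicates 1 and 2, UNx CreMinus replicate 1, and replicate 3 of each sham group) and 7 were female. The labels give no sex. Pkd1 itself, checked first, had 45.5, 39.6 and 45.1 CPM (counts scaled to library size) in UNx CrePlus kidneys, against 49.4, 49.3 and 71.6 CPM in UNx CreMinus kidneys. In sham kidneys it had 64.1, 46.1 and 45.9 CPM with Cre, against 76.8, 60.3 and 57.8 CPM without. The log2 fold change with Cre was -0.39 ± 0.18 (SE; adjusted p = 0.482) after UNx and -0.32 ± 0.18 (adjusted p = 1) after sham surgery in edgeR's quasi-likelihood test with Benjamini-Hochberg adjustment. A count over the whole gene does not see a deletion of some exons, and these values check the labels only weakly.

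All 27 genes passed the filter on low counts and were detected in every library. Per kilobase of exon, Hmgcs1, which makes HMG-CoA, had the highest median level over the 12 libraries (98.9 CPM per kb), followed by Cyp51, the lanosterol 14-alpha-demethylase (69.0), Ebp, the sterol isomerase (34.5), and Nsdhl, a sterol C4 decarboxylase (30.9). At the low end stood Tm7sf2, a sterol C14 reductase (2.93), Soat1, which esterifies cholesterol (2.66), and Lss, which closes the rings to lanosterol (1.96). Among the regulators, Insig1 (17.9), Srebf2 (16.7), Insig2 (16.2) and Scap (15.9) had similar levels per kilobase, and Srebf1 was lower (10.6). The spread over the 12 libraries was widest for Idi1, the isomerase that makes the reactive isoprenoid unit, whose highest library was 4.17 times its lowest. Abca1, the cholesterol efflux pump, followed with 2.68 times and Hmgcs1 with 2.37 times. Insig2 varied least, with 1.25 times.

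**Figure D1:**
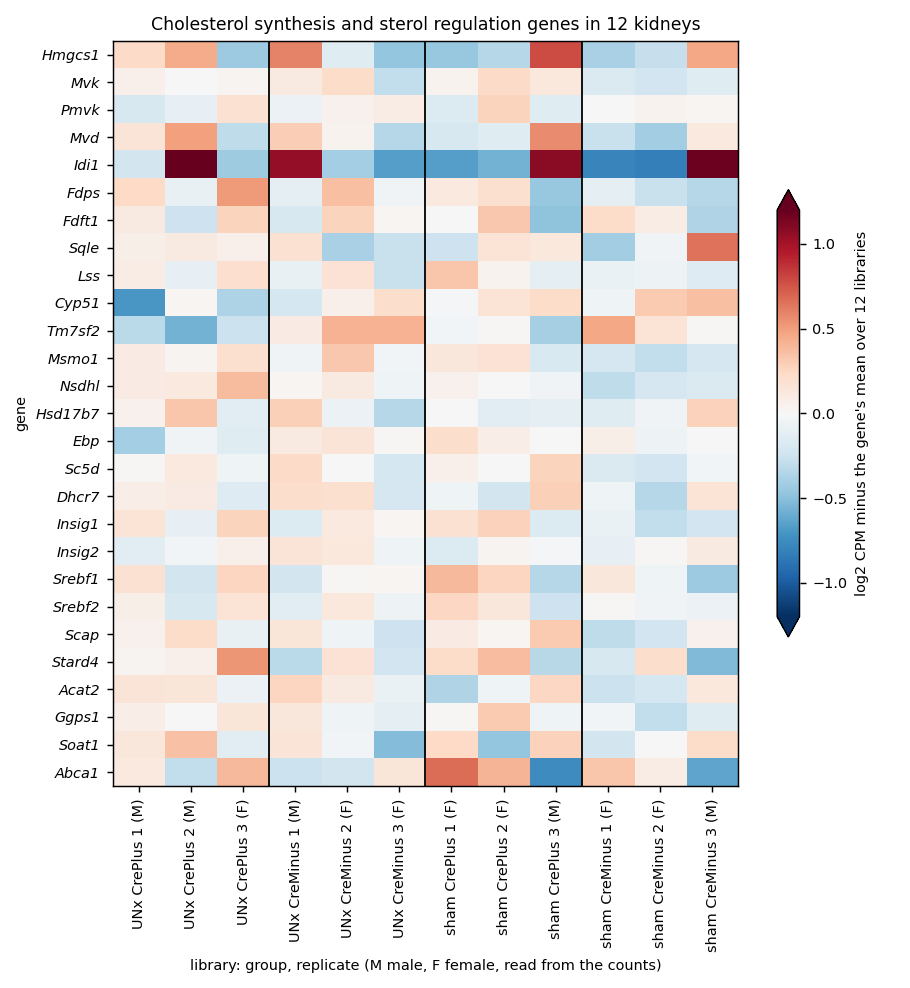
Level of the 27 genes in the 12 libraries. Rows are genes in the order of the list, and columns are libraries by group with the sex read from the counts. Colour is log2 CPM minus the gene's mean over all libraries, with values past 1.2 shown at the end of the scale. Idi1 and Hmgcs1 are red in male columns, except that Idi1 is blue in UNx CrePlus replicate 1, and Tm7sf2 is blue in the UNx CrePlus columns.

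The widest differences between libraries lay within the groups. Idi1 had 74.8, 207 and 65.0 CPM in UNx CrePlus kidneys, against 182, 65.9 and 55.1 CPM in UNx CreMinus kidneys, and 55.3, 58.9 and 185 CPM in sham CrePlus kidneys, against 50.4, 49.6 and 197 CPM in sham CreMinus kidneys. The high library or libraries of each group were male, and 4 of the 5 male libraries stood at 182 CPM or above. The fifth, UNx CrePlus replicate 1, had 74.8 CPM, just above the highest female library (65.9). Hmgcs1 had 618, 719 and 389 CPM in UNx CrePlus kidneys, against 793, 475 and 381 CPM in UNx CreMinus kidneys. In sham kidneys Hmgcs1 had 383, 416 and 903 CPM with Cre, against 401, 434 and 728 CPM without. Each male library was again above each female one, at 618 to 903 CPM against 381 to 475 CPM. UNx CrePlus replicate 1 was also low for a male in Kap, an androgen-driven gene of the proximal tubule, with 11300 CPM against 27400 to 38700 CPM in the other males and 2130 to 8570 CPM in females. In a test of male against female libraries, added after these values were seen, 15 of 27 genes were called in edgeR, where 20.4% of all genes were called, and 9.43% of all genes had no overlap between the sexes. Of the 27, 9 were higher in males, as were 10.5% of all genes, and 6 were lower, as were 9.89%. Since sex is uneven between the UNx groups, with 2 males of 3 in CrePlus and 1 of 3 in CreMinus, values within each sex are given beside the genes of smallest p, from 1 or 2 kidneys each.

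**Figure D2:**
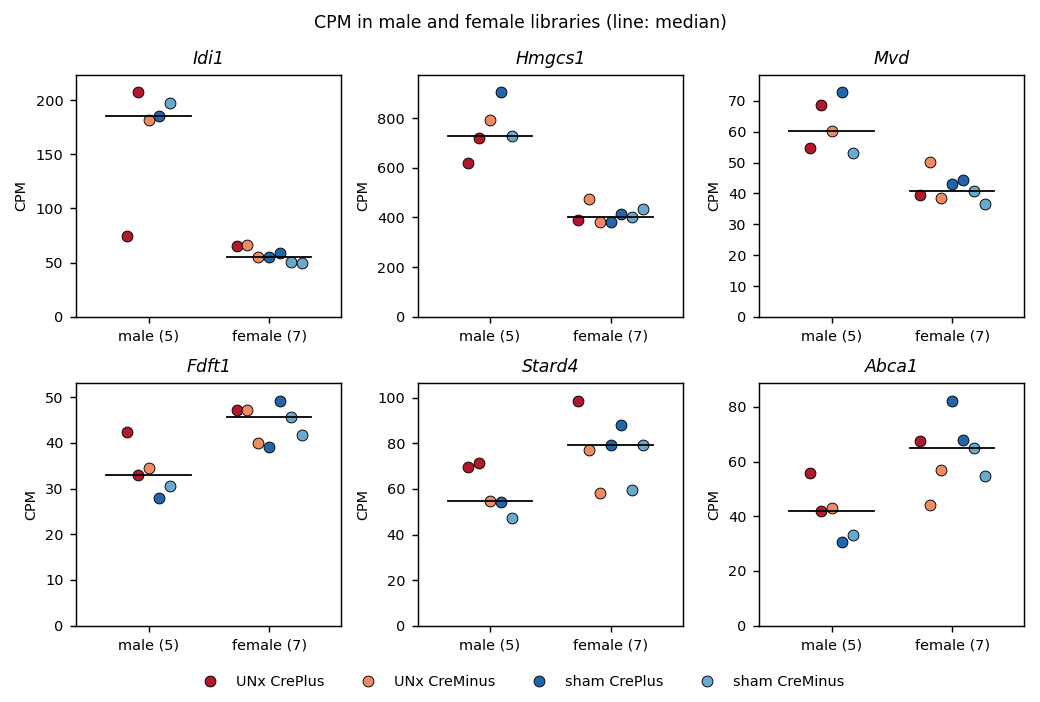
CPM of Idi1, Hmgcs1, Mvd, Fdft1, Stard4 and Abca1 in male (5) and female (7) libraries. Points are libraries coloured by group, the line is the median, and axes start at 0. The male and female points do not overlap for Idi1, Hmgcs1 and Mvd and overlap for Fdft1, Stard4 and Abca1.

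Promoter sequences of 23 of the 27 genes were available from RefSeq (build GRCm38.p6), as the 250 bases before to the 50 bases after each gene start. Fdps, Sqle, Fdft1 and Stard4 were not matched. Some genes had more than 1 such window, and a gene was counted if any of its windows held the word. A core form of the sterol regulatory element, TCACNCCAC on either strand, was found for 1 of 23 genes, Hmgcs1 (4.35%), against 1.41% of 17492 coding genes. CCAAT, the word bound by NF-Y, a usual partner of SREBPs, was found on either strand in 20 of 23 (87.0%), against 42.3% of coding genes, and the GC box word GGGCGG in 21 of 23 (91.3%), against 49.2%. These words are short, no binding was measured, and a match is only a match of letters. The promoters of 5 genes are shown because the values below and above turn on them: Idi1 and Hmgcs1 for the spread between libraries, Mvd, whose male and female libraries did not overlap either, Tm7sf2 for the lowest p with Cre and Nsdhl for the lowest p with UNx. Capitals mark CCAAT, read as ATTGG on the other strand, and in Hmgcs1 also the sterol regulatory element. Hmgcs1 is at chr13:119690101-119690400 on the plus strand, Idi1 at chr13:8885356-8885655 (plus), Mvd at chr8:122443373-122443672 (minus), Tm7sf2 at chr19:6067801-6068100 (minus) and Nsdhl at chrX:72918271-72918570 (plus), each printed 5′ to 3′ in the direction of the gene.
Hmgcs1: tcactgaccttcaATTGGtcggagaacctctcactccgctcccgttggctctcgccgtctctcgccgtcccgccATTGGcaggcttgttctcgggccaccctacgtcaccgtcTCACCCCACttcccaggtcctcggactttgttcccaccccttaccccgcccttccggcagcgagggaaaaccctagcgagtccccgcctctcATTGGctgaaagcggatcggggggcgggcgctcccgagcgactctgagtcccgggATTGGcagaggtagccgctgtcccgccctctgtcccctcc
Idi1: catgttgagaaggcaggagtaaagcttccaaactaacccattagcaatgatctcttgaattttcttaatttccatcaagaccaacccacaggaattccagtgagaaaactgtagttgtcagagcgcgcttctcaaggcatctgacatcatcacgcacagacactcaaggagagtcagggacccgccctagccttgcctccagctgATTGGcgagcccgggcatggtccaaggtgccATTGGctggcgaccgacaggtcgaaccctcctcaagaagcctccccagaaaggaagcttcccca
Mvd: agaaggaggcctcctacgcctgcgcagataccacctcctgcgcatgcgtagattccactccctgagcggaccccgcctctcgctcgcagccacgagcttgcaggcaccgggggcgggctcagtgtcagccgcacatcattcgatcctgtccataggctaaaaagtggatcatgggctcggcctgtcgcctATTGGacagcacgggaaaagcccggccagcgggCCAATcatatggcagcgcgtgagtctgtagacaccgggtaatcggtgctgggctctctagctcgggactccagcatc
Tm7sf2: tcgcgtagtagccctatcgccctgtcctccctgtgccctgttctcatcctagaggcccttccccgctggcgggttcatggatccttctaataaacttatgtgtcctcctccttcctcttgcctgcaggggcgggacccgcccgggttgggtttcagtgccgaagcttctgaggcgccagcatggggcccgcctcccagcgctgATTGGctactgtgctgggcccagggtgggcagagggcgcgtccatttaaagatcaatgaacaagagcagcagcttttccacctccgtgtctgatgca
Nsdhl: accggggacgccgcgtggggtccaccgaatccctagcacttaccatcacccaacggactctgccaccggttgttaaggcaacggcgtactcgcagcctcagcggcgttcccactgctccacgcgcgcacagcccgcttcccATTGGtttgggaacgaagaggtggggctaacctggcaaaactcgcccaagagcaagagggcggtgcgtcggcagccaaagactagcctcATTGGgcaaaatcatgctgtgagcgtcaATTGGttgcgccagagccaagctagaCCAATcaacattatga
Hmgcs1 and Nsdhl each hold 4 CCAAT words in this window, Idi1 and Mvd 2 each, and Tm7sf2 1, at 47 bases before the gene start.

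CrePlus and CreMinus kidneys were compared after UNx to ask what differs with Cre in the remaining kidney. Of the 27 genes, 0 were called at an adjusted p under 0.05 in edgeR's quasi-likelihood test, where 0.14% of 14970 genes were called. At an unadjusted p under 0.05 there were 2 of 27, Tm7sf2 and Ebp, against 10.7% of all genes. Both lay lower in UNx CrePlus kidneys, without overlap between the groups, and 7.47% of all genes were lower in this way. Higher without overlap were 0 of 27, against 8.33% of all genes. The median log2 fold change of the 27 was 0.08, with 20 higher and 7 lower, where 47.8% of all genes were higher. The median was -0.03 without UNx CreMinus replicate 3. It was -0.08 with a term for depth, a fit that rests on UNx CreMinus replicate 1, the only deep library of its group. Over all alternatives run it lay between -0.08 and 0.11. The sign of this median thus hung on single libraries, and in UNx kidneys the list had no steady direction with Cre.

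Tm7sf2 (chromosome 19, 6062821 to 6067850), which reduces the double bond left by the demethylase CYP51, had 10.2, 8.66 and 10.7 CPM in UNx CrePlus kidneys, against 13.7, 17.1 and 17.1 CPM in UNx CreMinus kidneys. All 3 CrePlus kidneys were below all 3 CreMinus kidneys. The means were 9.85 ± 1.06 and 16 ± 1.94 CPM (SD, n = 3 each), a log2 fold change of -0.70 ± 0.16 (SE), with a 95% interval of -1.05 to -0.34 and an adjusted p of 0.195 in edgeR. The call depended on the test: DESeq2, which called 1.21% of all genes, gave -0.69 (adjusted p = 0.00919), and edgeR with a term for sex, which called 0.748%, gave -0.59 (adjusted p = 0.0429). The authors' deposited table gives -0.61 ± 0.15 (adjusted p = 0.00596), where Tm7sf2 is the only member called and 1.84% of its 14530 genes with an adjusted p are. With a term for depth, it was -0.48 ± 0.21. Among UNx CreMinus kidneys only replicate 1, a male, was deep, so this fit sets the UNx CrePlus kidneys against that library alone. Over all alternatives run the value stayed between -0.79 and -0.48. Leaving out each library in turn gave -0.79 to -0.61 (adjusted p = 0.119 to 0.615).

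Within males, Tm7sf2 averaged 9.43 CPM in 2 UNx CrePlus kidneys and 13.7 CPM in 1 UNx CreMinus kidney, and within females it was 10.7 CPM in 1 kidney and 17.1 CPM in 2. In sham kidneys it had 12.5, 12.9 and 9.69 CPM with Cre, against 17.7, 14.3 and 12.9 CPM without, a log2 fold change of -0.35 ± 0.16 (adjusted p = 1). These sham groups touched at 12.9 CPM. Within sham males it was 9.69 CPM with Cre and 12.9 CPM without, and within sham females 12.7 and 16 CPM. Averaged over both surgeries, the log2 fold change with Cre was -0.52 ± 0.11 (adjusted p = 0.0853 in edgeR), where 0.521% of all genes were called. That average was called in DESeq2 (-0.52, adjusted p = 0.00256, with 2.41% of all genes called) and in edgeR with a sex term (-0.47, adjusted p = 0.0124, with 1.97% called). Tm7sf2 shares 532 exon bases, 12.1% of its exon length, with Vps51 on the same strand, so reads from this stretch may be counted for either or for neither. Vps51, a tethering subunit of vesicle traffic, had a log2 fold change of -0.09 ± 0.07 (adjusted p = 0.692) in the same comparison.

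Of the other genes with the smallest p, Ebp, Cyp51 and Nsdhl act after lanosterol. Ebp, the isomerase that shifts the ring double bond late in the pathway, had 59.6, 76.6 and 71.6 CPM in UNx CrePlus kidneys, against 85.1, 88.2 and 79.9 CPM in UNx CreMinus kidneys. The groups did not overlap, and the log2 fold change was -0.28 ± 0.10 (adjusted p = 0.378). Within males Ebp averaged 68.1 CPM with Cre and 85.1 CPM without, and within females 71.6 and 84 CPM. Cyp51 had 183, 300 and 229 CPM in UNx CrePlus kidneys, against 255, 309 and 343 CPM in UNx CreMinus kidneys (-0.35 ± 0.19, adjusted p = 0.535). Nsdhl, which acts between them, had the opposite sign: 94.0, 95.3 and 114 CPM with Cre, against 89.0, 94.5 and 84.6 CPM without (0.18 ± 0.09, adjusted p = 0.498). Within males Nsdhl averaged 94.7 CPM with Cre and 89 CPM without, and within females 114 and 89.5 CPM. Stard4, a carrier of cholesterol between membranes, had 69.6, 71.2 and 98.5 CPM with Cre, against 54.7, 77.2 and 58.2 CPM without (0.33 ± 0.23, adjusted p = 0.656). The groups overlapped for Cyp51, Nsdhl and Stard4. Within males Cyp51 averaged 241 CPM with Cre and 255 CPM without, and within females 229 and 326 CPM, a log2 ratio of -0.08 in males and -0.51 in females. Stard4 averaged 70.4 and 54.7 CPM within males, and 98.5 and 67.7 CPM within females.

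**Figure D3:**
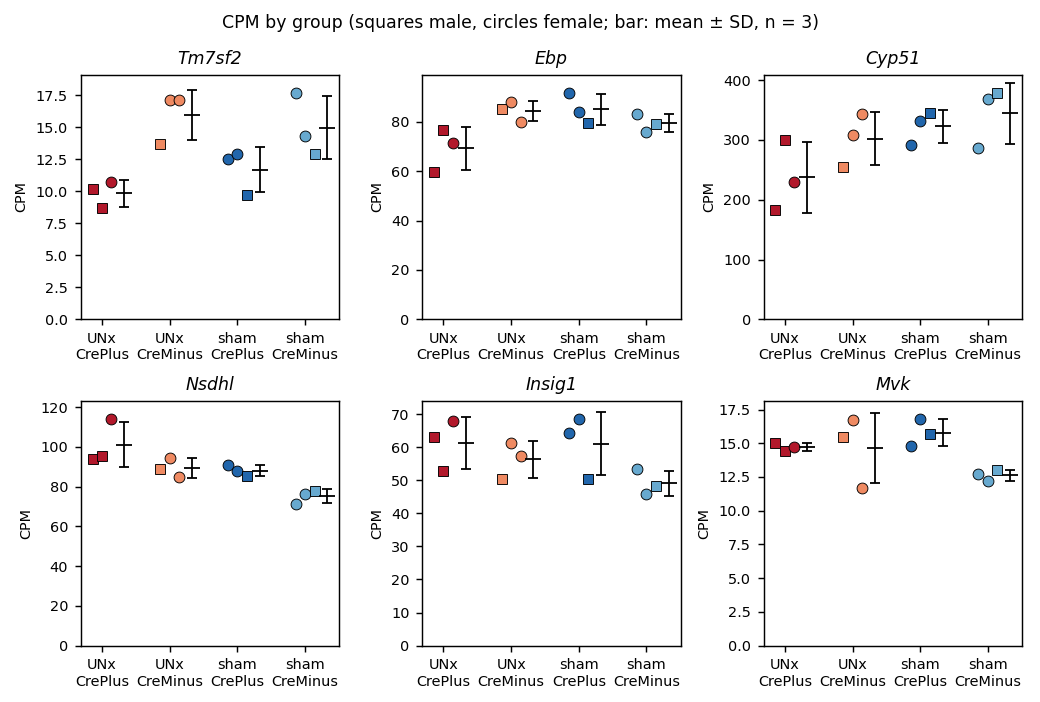
CPM of 6 genes of the list in the 4 groups. Squares are male and circles female libraries, the bar is the mean ± SD (n = 3), and axes start at 0. All UNx CrePlus points of Tm7sf2 and Ebp lie below the UNx CreMinus points, and Nsdhl is lowest in sham CreMinus kidneys.

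For 16 of 27 genes the 95% interval of the Cre effect after UNx lay inside a 1.5-fold change in either direction. Of the regulators, Insig1 (0.12 ± 0.13), Insig2 (-0.11 ± 0.09), Srebf2 (0.04 ± 0.14) and Scap (0.10 ± 0.14) were among these, as were Msmo1, the sterol C4 oxidase (0.02 ± 0.12), and Sc5d, the sterol C5 desaturase (0.01 ± 0.12), all as log2 fold changes with SE. Idi1 (0.19 ± 0.73), Hmgcs1 (0.07 ± 0.40), Abca1 (0.20 ± 0.34) and Mvd, which decarboxylates mevalonate diphosphate (0.13 ± 0.26), had intervals that reached past it, as did those of Fdps, Sqle, Cyp51, Tm7sf2, Srebf1 (0.14 ± 0.20), Stard4 and Soat1. With a term for sex, their log2 fold changes were -0.20 ± 0.30 for Idi1, -0.22 ± 0.12 for Hmgcs1 (adjusted p = 0.451), -0.07 ± 0.12 for Mvd and 0.40 ± 0.21 for Abca1, so 3 of the 4 changed sign and 0 were called. Within males Hmgcs1 averaged 668 CPM with Cre and 793 CPM without, and within females 389 and 428 CPM. The direction of Idi1 differed between the sexes, at 141 CPM with Cre and 182 CPM without in males, and 65 and 60.5 CPM in females.

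Sums of cell type markers also differed between the groups, though 0 markers were called. The summed CPM of 12 macrophage markers was 576, 702 and 419 in UNx CrePlus kidneys, against 288, 332 and 298 in UNx CreMinus kidneys, with 11 of 12 higher. The sum of 10 markers of dividing cells was 150, 171 and 45.5, against 58.5, 74.2 and 27.4, with 10 of 10 higher. The sum of 8 loop of Henle and distal tubule markers was 7150, 7650 and 10700, against 11500, 12100 and 12100, with 0 of 8 higher. Tubular injury markers summed to 4330, 2840 and 3730 CPM, against 1490, 3840 and 3140 CPM, with 9 of 10 higher. The sums of dividing cell and tubular injury markers overlapped between the groups. So did those of proximal tubule (4 of 10 higher), collecting duct (1 of 7) and adipocyte markers (2 of 4 tested, with 8 summed). In sham kidneys the macrophage sum was 594, 309 and 357 CPM with Cre, and 339, 277 and 625 CPM without. High macrophage sums were thus not limited to UNx CrePlus kidneys. The part of the cell type markers in the values of Tm7sf2 and Ebp was not tested. In bulk kidney, fewer cells of a type and less RNA per cell cannot be told apart. Among adrenal cortex markers, the defining enzymes Cyp11a1, Cyp11b1 and Cyp11b2 had 0 to 3, 0 to 1 and 0 counts over the 12 libraries, while Star, the carrier that feeds steroid synthesis, had 78 to 177 counts in all 12. The sum of all 10 listed adrenal cortex markers was 52.5, 61.8 and 56 CPM in UNx CrePlus kidneys, against 63.6, 65.4 and 73.6 CPM in UNx CreMinus kidneys. Of the 4 that were tested, 0 were higher.

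The same comparison in sham kidneys asks what differs with Cre when both kidneys are kept. Again 0 of 27 genes were called, where 0.0267% of 14970 genes were called. At an unadjusted p under 0.05 there were 5 of 27, Nsdhl, Mvk, Insig1, Msmo1 and Scap, all higher in sham CrePlus kidneys, against 4.05% of all genes. Without overlap between the groups, 4 of 27 were higher (Mvk, Msmo1, Nsdhl and Sc5d), as were 4.66% of all genes, and 0 of 27 were lower in this way, against 3.49%. The median log2 fold change was 0.12, with 20 of 27 higher, where 50.4% of all genes were higher. Over all alternatives run this median lay between 0.09 and 0.19.

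Mvk, the mevalonate kinase, had 14.8, 16.8 and 15.7 CPM in sham CrePlus kidneys, against 12.7, 12.2 and 13 CPM in sham CreMinus kidneys (log2 fold change 0.32 ± 0.13, adjusted p = 1 in edgeR). Nsdhl had 91.0, 87.6 and 85.4 CPM with Cre, against 71.3, 76.3 and 77.9 CPM without (0.23 ± 0.09, adjusted p = 1). Within sham males Nsdhl was 85.4 CPM with Cre and 77.9 CPM without, and within sham females 89.3 and 73.8 CPM. Msmo1 had 32.6, 33.6 and 26.1 CPM with Cre, against 25.8, 24.2 and 25.8 CPM without (0.28 ± 0.12, adjusted p = 1). Its gap lay with the female kidneys, at means of 33.1 and 25.0 CPM (n = 2 each), while the male kidneys had 26.1 and 25.8 CPM. Insig1, the SREBP pathway's own feedback inhibitor and target, had 64.2, 68.5 and 50.3 CPM with Cre, against 53.3, 45.9 and 48.1 CPM without (0.31 ± 0.13, adjusted p = 1). Scap, the escort of SREBPs, had 123, 117 and 143 CPM with Cre, against 93.1, 98.2 and 119 CPM without (0.30 ± 0.14, adjusted p = 1). For Insig1 and Scap the groups overlapped. Within sham males, Mvk was 15.7 CPM with Cre and 13 CPM without, Insig1 50.3 and 48.1 CPM, and Scap 143 and 119 CPM. Within sham females, Mvk averaged 15.8 CPM with Cre and 12.4 CPM without, Insig1 66.3 and 49.6 CPM, and Scap 120 and 95.7 CPM. Without sham CrePlus replicate 1, which the labels title by group and not by animal and which the authors' second sham table leaves out, Mvk was 0.36, Nsdhl 0.20, Msmo1 0.24, Insig1 0.27 and Scap 0.33 on the log2 scale, and 0 of 27 genes were called. Among enzymes before lanosterol, Pmvk, the kinase after Mvk (-0.02 ± 0.14), and Fdft1, squalene synthase (-0.02 ± 0.22), had log2 fold changes near 0, and Hmgcs1 had a wide error (0.12 ± 0.40).

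Set side by side, the Cre effects in UNx and in sham kidneys come from separate libraries. The sign was the same for 21 of 27 genes, 17 higher and 4 lower in both, against 67.1% of all 14970 genes. Nsdhl was higher with Cre in both, and its average over surgery was 0.20 ± 0.06 on the log2 scale (adjusted p = 0.231 in edgeR). Insig1 (0.22 ± 0.09, adjusted p = 0.403), Scap (0.20 ± 0.10, adjusted p = 0.438) and Ggps1, which makes geranylgeranyl diphosphate (0.17 ± 0.09, adjusted p = 0.466), were next in p after Tm7sf2 and Nsdhl. On this average 0 of 27 genes were called and 3 of 27 had an unadjusted p under 0.05, against 11.8% of all genes. The median log2 fold change of the 27 was 0.13, and 0.05 to 0.16 over the alternatives run.

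**Figure D4:**
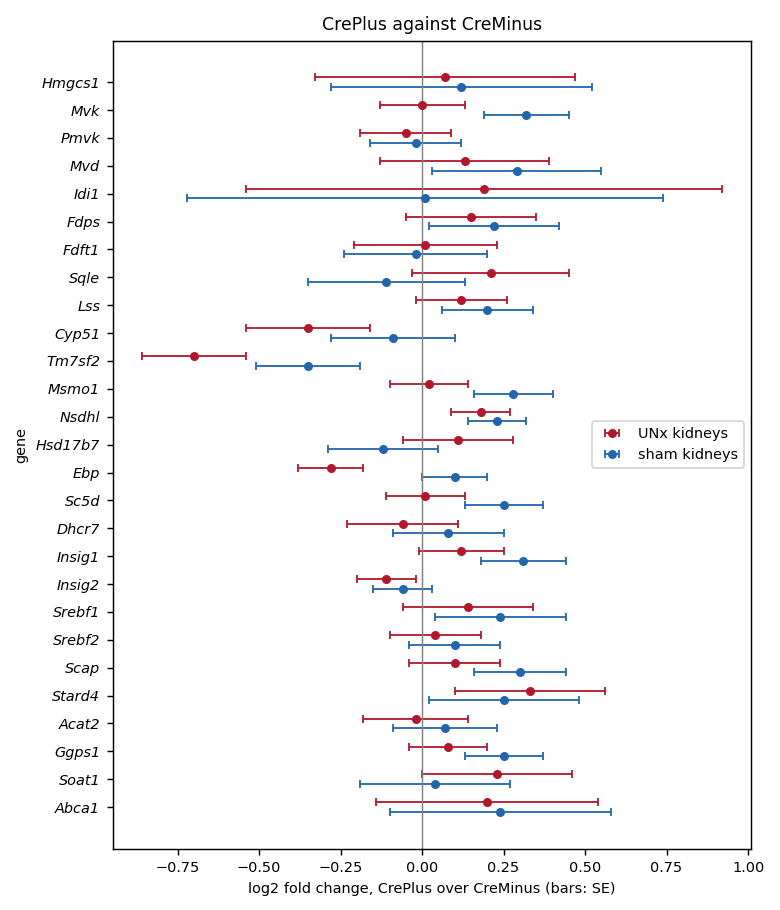
Log2 fold change of CrePlus over CreMinus for each of the 27 genes, in UNx kidneys (red) and sham kidneys (blue), with SE from edgeR as bars. Tm7sf2 is lowest in both, Ebp is below 0 in UNx kidneys and above 0 in sham kidneys, and bars are widest for Idi1.

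UNx and sham kidneys were compared to ask what differs in a kidney left alone for 4 weeks. In CrePlus kidneys 0 of 27 genes were called, where 0% of 14970 genes were called, and 3 of 27 had an unadjusted p under 0.05, against 6.83% of all genes. Ebp was lower in UNx CrePlus kidneys, at 59.6, 76.6 and 71.6 CPM, than in sham CrePlus kidneys, at 91.8, 83.8 and 79.5 CPM (log2 fold change -0.30 ± 0.10, adjusted p = 0.692 in edgeR), with no overlap, as for 5.05% of all genes. Nsdhl was higher, at 94.0, 95.3 and 114 CPM against 91.0, 87.6 and 85.4 CPM (0.20 ± 0.09, adjusted p = 0.725), also with no overlap, as for 4.73% of all genes. Cyp51 had 183, 300 and 229 CPM in UNx CrePlus kidneys, against 292, 332 and 345 CPM in sham CrePlus kidneys (-0.45 ± 0.19, adjusted p = 0.717), and its groups overlapped. That value was 0.01 with terms for sex and depth. Tm7sf2 (-0.25 ± 0.16, adjusted p = 0.817) was 0.07 with a term for depth alone, and Fdps, which makes farnesyl diphosphate, had 0.26 ± 0.20 (adjusted p = 0.856). Within CrePlus males and females, the log2 ratio of UNx to sham was -0.22 and -0.29 for Ebp, 0.15 and 0.35 for Nsdhl, -0.52 and -0.45 for Cyp51, -0.04 and -0.25 for Tm7sf2, and 0.54 and 0.36 for Fdps. All 3 UNx CrePlus libraries were deep and all 3 sham CrePlus libraries were not, so depth and surgery cannot be told apart within CrePlus kidneys. The depth term was set by UNx CreMinus replicate 1, which is in neither of these groups, so the values with it do not settle the direction.

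In CreMinus kidneys 0 of 27 genes were called, where 0% of all genes were called, and 2 of 27 had an unadjusted p under 0.05, against 1.3% of all genes. Without overlap, 3 of 27 were higher after UNx, as were 2.67% of all genes: Nsdhl, Msmo1 and Fdps. Nsdhl had 89.0, 94.5 and 84.6 CPM in UNx CreMinus kidneys, against 71.3, 76.3 and 77.9 CPM in sham CreMinus kidneys (0.25 ± 0.09, adjusted p = 1). Msmo1 had 28.9, 37.2 and 29.0 CPM, against 25.8, 24.2 and 25.8 CPM (0.32 ± 0.12, adjusted p = 1). Fdps had 29.9, 41.4 and 31.3 CPM, against 29.7, 26.8 and 25.3 CPM, with its lowest UNx kidney just above the highest sham kidney (0.33 ± 0.20, adjusted p = 1). Mvk (0.22 ± 0.13) and Insig1 (0.20 ± 0.13) had the same sign with overlap. Within CreMinus males and females, the log2 ratio of UNx to sham was 0.19 and 0.28 for Nsdhl, 0.16 and 0.40 for Msmo1, and 0.24 and 0.36 for Fdps. The sham CreMinus kidneys are the reference both here and for the Cre effect in sham kidneys, and Nsdhl, Msmo1, Mvk and Insig1 were low in them, so their appearance in both comparisons rests on the same 3 libraries.

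Averaged over Cre status, Nsdhl had a log2 fold change with UNx of 0.23 ± 0.06 (adjusted p = 0.875 in edgeR) and Cyp51 of -0.32 ± 0.13 (adjusted p = 0.875). Msmo1 (0.19 ± 0.09, adjusted p = 0.88), Fdps (0.29 ± 0.14, adjusted p = 0.885) and Ebp (-0.10 ± 0.07, adjusted p = 0.904) followed. Over the alternatives run, the value lay between 0.18 and 0.32 for Nsdhl and between -0.42 and -0.01 for Cyp51. All deep libraries were UNx, so depth was uneven in this average too. Of the 27 genes 0 were called, where 0% of all genes were called, and 3 had an unadjusted p under 0.05, against 5.66% of all genes. Nsdhl had the lowest p of the list for UNx, with the lowest of its 3 UNx kidneys above the highest of its 3 sham kidneys in each Cre status.

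**Figure D5:**
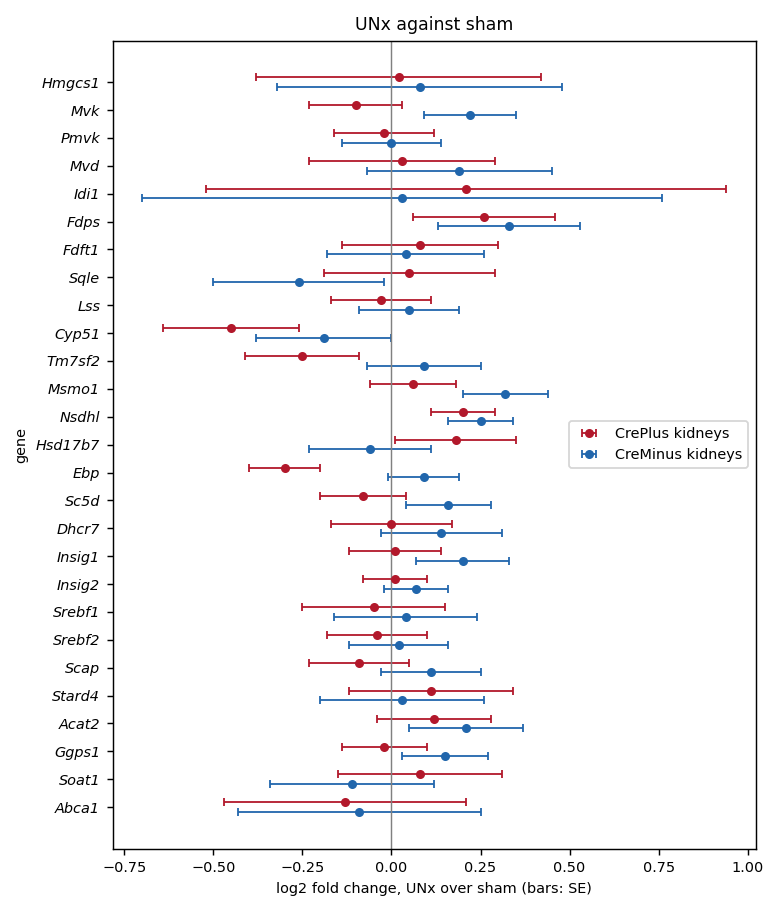
Log2 fold change of UNx over sham for each of the 27 genes, in CrePlus kidneys (red) and CreMinus kidneys (blue), with SE from edgeR as bars. Nsdhl is above 0 in both, and Ebp and Tm7sf2 are below 0 in CrePlus and above 0 in CreMinus kidneys.

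The interaction asks whether the Cre effect differed between UNx and sham kidneys. For it 0 of 27 genes were called, where 0% of all genes were called, and 1 of 27 had an unadjusted p under 0.05, against 1.85% of all genes. That gene was Ebp, with -0.38 ± 0.14 on the log2 scale (adjusted p = 1 in edgeR), from -0.28 ± 0.10 in UNx and 0.10 ± 0.10 in sham kidneys. Mvk (-0.32 ± 0.18), Tm7sf2 (-0.34 ± 0.23), Msmo1 (-0.27 ± 0.17) and Sc5d (-0.24 ± 0.16) came next, each with an adjusted p of 1. The 95% interval stayed inside 1.5-fold for 7 of 27 genes, so these data bound the interaction of most of the list only loosely. DESeq2 also called 0 of 27 genes for the interaction, for Cre in sham kidneys and for each UNx comparison.

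Genes that neighbour the pathway were read from 4 lists, and 0 were called in any comparison. Of 13 fatty acid synthesis genes, which SREBP-1 controls, 6 were higher and 7 lower with Cre after UNx (median log2 fold change -0.08). Scd1, a fatty acid desaturase, had 196, 112 and 518 CPM in UNx CrePlus kidneys, against 381, 1000 and 1080 CPM in UNx CreMinus kidneys (-1.57 ± 0.73, adjusted p = 0.477), and the groups overlapped. Over all libraries Scd1 was 112 to 399 CPM in males and 518 to 1170 CPM in females, and sex was uneven between the UNx groups. Within UNx males it was 196 and 112 CPM with Cre and 381 CPM without. Within UNx females it was 518 CPM with Cre, and 1000 and 1080 CPM without. Fads1, a desaturase of polyunsaturated fatty acids, had 0.24 ± 0.13 (adjusted p = 0.544). With Cre in sham kidneys 11 of 13 were higher (median 0.20), led by Fasn, the fatty acid synthase (0.85 ± 0.38, adjusted p = 1), where sham CrePlus replicate 3 alone had 292 CPM and the other 5 sham kidneys 80.8 to 95.5 CPM. All 4 tested adipocyte markers were higher in sham CrePlus kidneys (median log2 fold change 1.58, 0 called). The sum of all 8 listed adipocyte markers was 822, 941 and 1360 CPM with Cre, against 512, 651 and 1080 CPM without. It was highest in that same library, sham CrePlus replicate 3. The part of these markers in the fatty acid genes was not tested.

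Of 16 genes of sterol uptake, lysosomal release, oxidation and efflux, 10 were higher and 6 lower with Cre after UNx (median 0.07). Ch25h, which makes 25-hydroxycholesterol, had 1.99, 2.19 and 1.01 CPM in UNx CrePlus kidneys, against 0.746, 0.828 and 1.22 CPM in UNx CreMinus kidneys (0.91 ± 0.34, adjusted p = 0.404). Its gap lay with the male kidneys, at 1.99 and 2.19 CPM with Cre and 0.746 CPM without. The female kidneys had 1.01 CPM with Cre, and 0.828 and 1.22 CPM without. Ch25h is a gene of activated macrophages, whose summed markers were higher in UNx CrePlus than in UNx CreMinus kidneys, and their part in it was not tested. Nr1h3, which encodes LXR-alpha, had -0.26 ± 0.12 (adjusted p = 0.491). With UNx in CrePlus kidneys, Nceh1, a cholesterol ester hydrolase (-0.50 ± 0.14, adjusted p = 0.692), and Mylip, an LXR target that degrades lipoprotein receptors (-0.35 ± 0.11, adjusted p = 0.692), had the smallest p. Of 13 isoprenoid branch genes, which make ubiquinone, dolichol and prenyl anchors, 6 were higher with Cre after UNx, and Nus1, a subunit of the dolichol-making enzyme, had 0.20 ± 0.12 (adjusted p = 0.601). Of 11 genes of SREBP cleavage and sterol-regulated degradation, 6 were higher (median 0.01), and Rnf145, a ubiquitin ligase of the endoplasmic reticulum, had 0.23 ± 0.23 (adjusted p = 0.767).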

How the data were processed

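Kidney RNA was made into libraries with the SMART-Seq v4 kit, per the labels' protocols, which does not mark strand. The tools that the submitters' processing notes name are cutadapt 1.11, FastQC 0.11.5, DESeq2 and HTSeq, on mm10/GRCm38; no aligner or annotation is given in the sources used here. The authors deposited counts per gene beside log2 fold changes, p-values, test scores and mean signal per gene of their own comparisons. Their 6 tables repeat the same counts; 24067 rows held 24062 genes. Counts of all 12 libraries were fitted with edgeR 4.0.16 (filterByExpr, leaving 14970 genes; TMM; 4 group means; quasi-likelihood test) in R 4.3.3, with Benjamini-Hochberg adjustment over all tested genes, called under 0.05. The fit was tested on simulated data. Intervals are 95%, unadjusted. CPM use TMM library sizes. Library depth is given in the report; CPM errors are SD over mice, which the labels give as 3 per group; sham CrePlus replicate 1 has no animal number in its title. DESeq2 1.42.0, other scaling, no filter, sex and depth terms, one sex and leave-one-out were alternatives. Named genes are those called or, where none was, the 5 of smallest p in each comparison, and in neighbouring lists the 2 of smallest p, shown for the main comparisons. The members, lists and tests were chosen with earlier results of these data known. Exon lengths came from GENCODE M21. Exons overlap with a gene of the count table on the other strand for Fdft1 with Ctsb (18.3% of exon length) and Ggps1 with Arid4b (5.44%). The same holds for Cyp51 with Akap9 (3.76%), Lss with 4930483K19Rik (3.53%) and Srebf1 with Rai1 (1.93%). Such overlap can mix reads, since the libraries do not mark strand. The strand setting of the counting is not given.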

Additional observations from a re-analysis of the deposited data

How the results depend on the processing

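No paired analysis was possible because the labels carry no replicate numbers shared between groups. The 35 member values named in the 7 comparisons were refitted 685 times over the alternatives; 679 kept their direction and side of the threshold, 4 gained a call and 2 reversed. The 4 were Tm7sf2 with Cre, so members called were 1 in place of 0 in UNx kidneys and averaged over surgery, with DESeq2 and with a sex term. Tm7sf2 with UNx in CrePlus kidneys was 0.07 with a depth term, against -0.25, and Cyp51 there was 0.01 with sex and depth terms, against -0.45. In every fit with a depth term, that term was set by UNx CreMinus replicate 1, a male. It was the only deep library of a group that held both depths, so values from these fits rest on it. The members' median with UNx in CrePlus kidneys was -0.10 with a depth term or with sex and depth terms, against 0.01; for the interaction it was -0.17 without sham CreMinus replicate 3, against -0.08. Genes called over the whole table varied more: with Cre in UNx kidneys 21 (188 with DESeq2, 112 with a sex term, 4 with a depth term, 48 without UNx CrePlus replicate 3 and as few as 6 when UNx CreMinus replicate 3 was left out), with Cre in sham kidneys 4 (43 with DESeq2, 10 with a sex term, 0 for those groups alone), and averaged 78 (385, 295 and, with a depth term, 11; 25 without sham CreMinus replicate 1 and 136 without UNx CrePlus replicate 3). With UNx, DESeq2 called 9 in CrePlus kidneys, 2 in CreMinus kidneys and 15 averaged, against 0 in edgeR, and edgeR 14 averaged without UNx CreMinus replicate 3. Between male and female libraries, members called were 15, against 7 in sham libraries alone, 9 with sex and depth terms, and 7 to 17 leaving out 1 library, lowest without sham CrePlus replicate 3 and 9 without UNx CreMinus replicate 1. The fit of only the groups compared was not run for the averages and the interaction, which need all groups. Without a sex term the SE of Hmgcs1 with Cre in UNx kidneys was 0.40 on the log2 scale, against 0.12 with it, and its value was 0.07 without and -0.22 with it. Each group had 3 kidneys, and depth and sex were uneven after UNx.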

Other observations

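The male and female libraries, told apart from the counts and not from the labels, were compared after the values had been seen. In edgeR's quasi-likelihood test with the 4 groups as a covariate, 15 of 27 genes (55.6%) were called between 5 male and 7 female libraries, 9 higher and 6 lower in males, as given above. Of the enzymes before lanosterol, Hmgcs1, Mvd, Idi1, Acat2 and Sqle were called higher in males, Fdps and Fdft1 were called lower, and Mvk (0.04 ± 0.09, adjusted p = 0.789), Pmvk (-0.17 ± 0.09, adjusted p = 0.188) and Lss (-0.16 ± 0.09, adjusted p = 0.238) were not called. Idi1 was higher by 1.59 ± 0.21 on the log2 scale (adjusted p = 0.000485), with means of 169 ± 53.7 CPM in males (SD, n = 5) and 57.2 ± 6.45 CPM in females (SD, n = 7). Hmgcs1 was higher by 0.91 ± 0.09 (adjusted p = 6.14e-05) and Mvd by 0.57 ± 0.09 (adjusted p = 0.00129). Sqle, the squalene epoxidase (0.40 ± 0.13, adjusted p = 0.0495), Hsd17b7, the 3-ketosteroid reductase (0.29 ± 0.09, adjusted p = 0.0462), Dhcr7, the last reductase (0.30 ± 0.08, adjusted p = 0.0272), Sc5d (0.21 ± 0.06, adjusted p = 0.026), Acat2, which makes acetoacetyl-CoA (0.31 ± 0.07, adjusted p = 0.00846), and Scap (0.27 ± 0.06, adjusted p = 0.00665) were higher too.

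The called genes did not all move one way along the pathway. Fdft1, which commits farnesyl diphosphate to sterols, was lower in males by 0.46 on the log2 scale (-0.46 ± 0.10, adjusted p = 0.00727), and so were Fdps (-0.37 ± 0.10, adjusted p = 0.0233) and Tm7sf2 (-0.30 ± 0.08, adjusted p = 0.0274). Srebf1 (-0.41 ± 0.09, adjusted p = 0.0102), Stard4 (-0.49 ± 0.10, adjusted p = 0.00464) and Abca1 (-0.69 ± 0.16, adjusted p = 0.0113) were lower as well, while Srebf2, the SREBP best known for cholesterol genes, missed the threshold (-0.23 ± 0.07, adjusted p = 0.0527). Without overlap between male and female libraries were 4 of 27 genes, Hmgcs1, Mvd, Idi1 and Acat2, where 9.43% of all genes did not overlap. In the 6 sham libraries alone, 7 of 27 were called, where 9.43% of 14557 genes were called. There 26 of 27 had the same sign as over all 12 libraries, but the 6 are among the 12, so this is no separate check. Hmgcs1, Idi1, Mvd, Stard4 and Fdft1 kept their call under every alternative run, and the other 10 lost it under at least 1. Sqle and Hsd17b7 lost it in 11 of 17 refits each, Sc5d and Tm7sf2 in 7, Dhcr7 in 6 and Fdps in 5. Acat2 and Abca1 lost it in 2 each, and Scap and Srebf1 in 1 each. Summed proximal tubule markers without Kap were 13300 to 17000 CPM in males and 15300 to 17100 CPM in females. Collecting duct markers summed to 400 to 588 CPM in males and 673 to 1060 CPM in females, without overlap. Loop of Henle and distal tubule markers summed to 7150 to 11500 CPM in males and 10300 to 12100 CPM in females. Tubular injury markers summed to 1080 to 4330 CPM in males, with 3 of the 5 at 1490 CPM or below, and to 2550 to 3970 CPM in females. Adipocyte markers summed to 601 to 1420 CPM in males and 512 to 941 CPM in females. The part of these markers in the differences between the sexes was not tested.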
